A study of Mus musculus with 12 samples.

Results

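The clustered protocadherins are cell-surface adhesion molecules encoded in 3 neighbouring gene clusters, alpha, beta and gamma. All protein-coding genes of the GRCm38 annotation whose symbol begins with Pcdha, Pcdhb or Pcdhg were taken, provided their mean reached 10 normalized counts in cortex or in hippocampus. All 57 annotated genes did so, among 55487 gene rows: 14 of the alpha cluster, 22 of the beta cluster and 21 of the gamma cluster. Pcdhb1 reached that mean in hippocampus alone, so 56 genes were tested in cortex and 57 in hippocampus. RNA sequencing compared cerebral cortex and hippocampus of C57BL/6 mice of genotype mTert WT (wild type) with mice of genotype mTert KO (G1) (knockout), which lack the gene for the catalytic subunit of telomerase. There were 3 libraries per tissue and genotype, 12 in all, and values are given in the order of libraries 1, 2 and 3. The labels give neither age nor sex and do not say whether each library is a separate animal, so p-values measure the spread between these libraries, which may be partly technical.

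Each neuron transcribes a small, partly random set of these genes, and the resulting combination of proteins on its surface lets branches of the same cell recognise and avoid one another. Promoter choice depends on CTCF and cohesin, which loop distant enhancers to a promoter, and on DNA methylation, which silences the others. In the alpha and gamma clusters each variable first exon carries its own promoter and encodes the extracellular part of the protein, and splicing joins it to 3 constant exons that encode a common cytoplasmic tail. The beta genes each consist of a single exon and lack that common tail. The C-type genes at the end of the alpha and gamma clusters are chosen less randomly, and Pcdhgc4 is known for its role in the survival of interneurons.

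All members lie on the plus strand of chromosome 18 (GRCm38), in the order alpha (36930184 to 37187661), beta (37264938 to 37524479) and gamma (37661793 to 37841873). The 3 alpha constant exons, at 37156155 to 37156213, 37159265 to 37159353 and 37184946 to 37187657, belong to all 14 alpha gene models and measure 59, 89 and 2712 bp. The gamma constant exons, at 37825021 to 37825079, 37833265 to 37833353 and 37839903 to 37841873, occur in all 21 gamma models, with 59, 89 and 1968 bp common to all of them. Alpha models therefore share 2860 to 2864 bp of exon with other members and gamma models at least 2116 bp. A read in a constant exon names the cluster but not the gene. The labels do not say how such reads were counted, so each alpha or gamma value is uncertain to that extent. The predicted models Gm37013, Gm37388 and Gm42416, which share exon with the gamma models, were at 0 in every library. How shared reads were assigned was not tested. Beta genes share no exon with another member, except Pcdhb21 and Pcdhb22, whose models overlap by 455 bp. Outside the constant exons the models of Pcdhgb1 and Pcdhga4 overlap by 1038 bp, and those of Pcdhgb4 and Pcdhga8 by 108 bp. The exons of Pcdhga10 lie wholly within exons of other models, in its variable part the opposite-strand model Gm26672. Pcdhga10 held 809 to 1694 normalized counts in cortex and 1142 to 2203 in hippocampus. The labels do not say whether strand was used in counting. The symbol Pcdha11 belongs to 2 alpha models, ENSMUSG00000007440 and ENSMUSG00000102206, which are kept apart by identifier.

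Library depth was 68424934 to 77972013 reads in cortex and 72401909 to 86639113 in hippocampus, taking the smallest step between values as 1 read. Tert ranged from 105 to 241 normalized counts in wild-type cortex and was listed at 0 in all 3 knockout libraries. It ranged from 128 to 184 in wild-type hippocampus and from 0 to 6.31 in knockout. Cortex wild-type library 2 stood apart: the median SD of log2 values over all genes was 0.20 in wild-type and 0.09 in knockout cortex, and leaving that library out raised the share of genes called in cortex from 1.94% to 21.4%. Its summed astrocyte markers were 236864 normalized counts, against 335692 and 330941 in wild-type libraries 1 and 3. The knockout cortex libraries held 270192, 250668 and 256183, so on this measure wild-type library 2 was nearer to knockout. Cortex results on the members are given with and without it. Levels of choroid plexus markers also differed between hippocampus libraries, at 347561, 12364 and 179858 summed normalized counts of 6 markers in wild-type libraries 1 to 3 against 8899.6 to 17978 in knockout. The neuronal markers were present in every library, and no marker of any list was at 0 in all libraries.

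In wild-type tissue the gamma genes were the most abundant of the 3 clusters per length of exon. Per kb of exon not shared with another member, the median level was 785 normalized counts for gamma, 262 for alpha and 78.6 for beta in cortex, and 838, 231 and 123 in hippocampus. Per kb of all exon, the medians were 479, 122 and 78.6 in cortex and 462, 106 and 118 in hippocampus, so the order of alpha and beta in hippocampus depends on how shared exon is treated. Counts of the 3 clusters in wild-type cortex made up 16.4 ± 0.338% (alpha), 11.49 ± 0.134% (beta) and 72.1 ± 0.326% (gamma) of all member counts (SD, n = 3).

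Among alpha genes the C-type gene Pcdhac2 had the highest wild-type level per kb of unshared exon, with 1067 normalized counts in cortex and 1196 in hippocampus. Pcdha8 had the lowest, with 28.9 and 38.0. This scale sets aside exon shared with members only. Pcdha4, at 408 and 488, shares 5274 of its 5768 bp of exon with same-strand models when the predicted model Gm42416 is counted too. Its place in the order therefore depends on how that exon is treated. Among beta genes Pcdhb9 was highest (274 and 337) and Pcdhb1 lowest (2.54 and 7.21). The highest gamma gene was Pcdhga2 in cortex (2069) and the C-type gene Pcdhgc3 in hippocampus (2177). The lowest gamma gene in both tissues was Pcdhgb5 (177 and 232), close to Pcdhga1 in cortex (181) and Pcdhgc4 in hippocampus (233). Per kb of all exon, Pcdhga1 was the lowest in cortex (110) and Pcdhgc4 in hippocampus (145). The plot of wild-type level by position shows tall bars for the C-type genes Pcdhac2, Pcdhgc3 and Pcdhgc5. The other C-type genes were low in their clusters, with 154 and 150.5 for Pcdhac1 and 329 and 233 for Pcdhgc4.

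**Figure D1:**
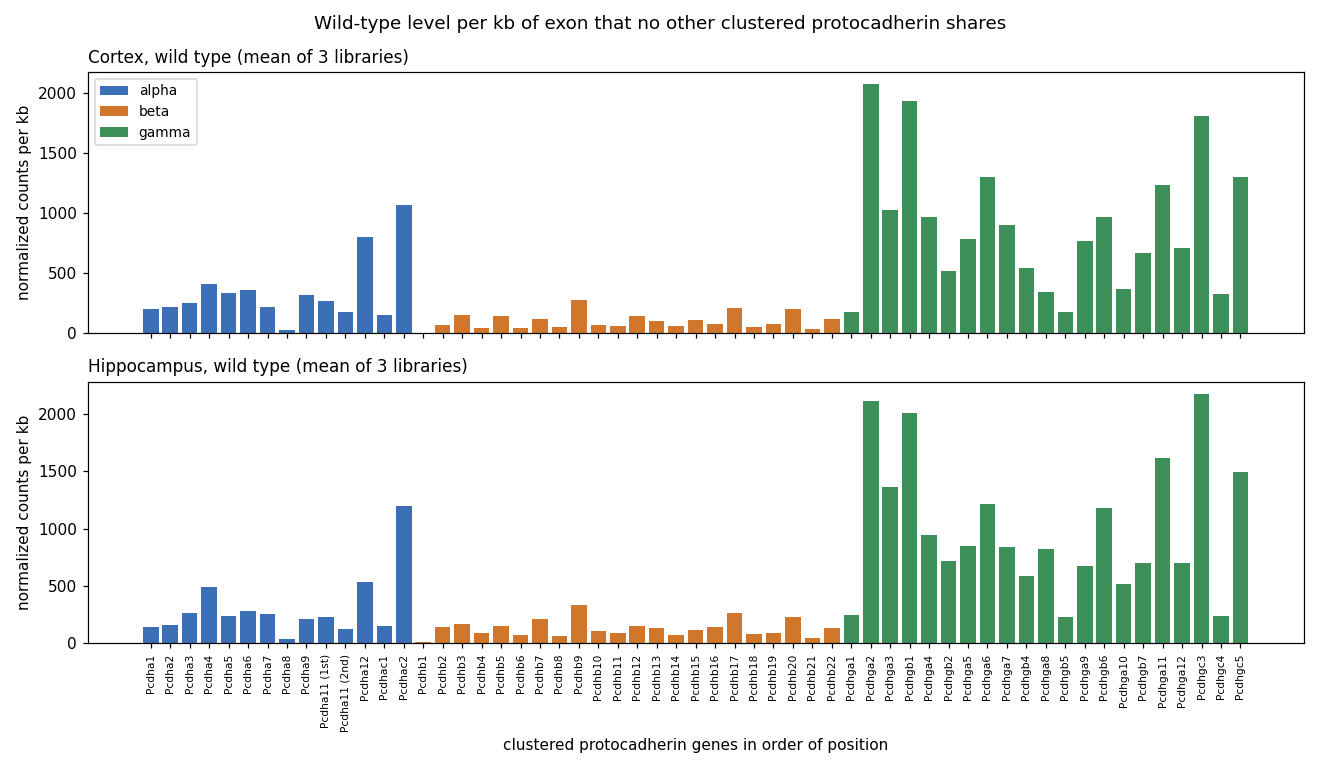
Mean wild-type level of each clustered protocadherin (normalized counts per kb of exon that no other member shares, y axis) in order of position (x axis), for cortex and hippocampus, n = 3 libraries each. Bars are coloured by cluster; gamma genes reach 2069 in cortex and 2177 in hippocampus, and no beta gene exceeds 337. The mean of Pcdhb21 includes 1 library at 0 in each tissue.

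Alpha genes varied most between libraries of the same group. The median SD of log2 values over the 14 alpha genes was 0.39 in wild-type and 0.28 in knockout cortex, and 0.29 and 0.28 in hippocampus. Gamma genes had 0.23 and 0.09 in cortex and 0.13 and 0.09 in hippocampus, close to the medians of all tested genes (0.20, 0.09, 0.12 and 0.09). Beta genes lay between, with 0.15, 0.11, 0.19 and 0.14, except in wild-type cortex, where their median was the lowest. Pcdha9, for example, had 1115, 309.6 and 940.5 normalized counts in the wild-type cortex libraries, with library 2 far below the others. Pcdha8 had 273, 92.1 and 90.9 in knockout cortex, where library 1 stood high. Pcdha9 was picked after its values were seen. The plot of SDs shows the alpha genes mostly above the median of all genes in both genotypes and both tissues.

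**Figure D2:**
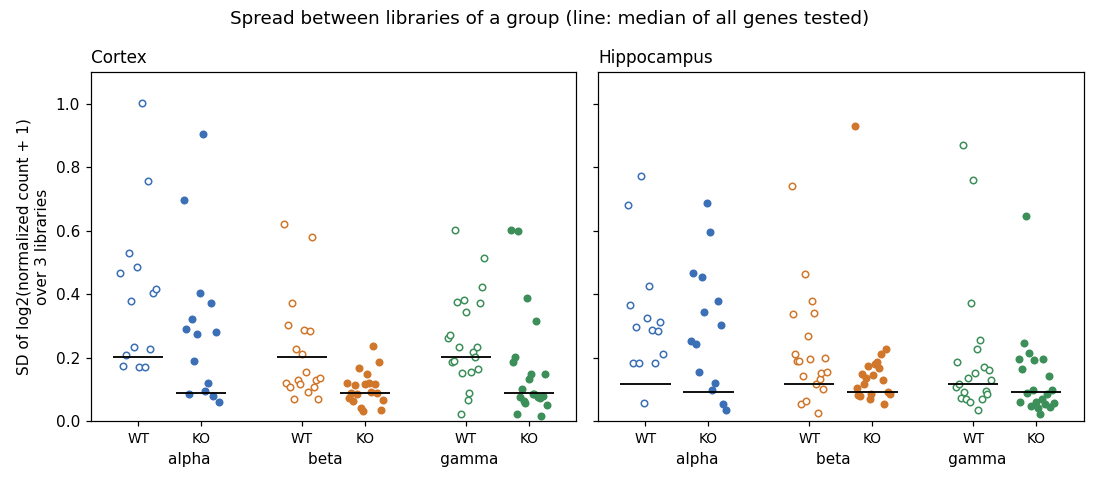
SD of log2(normalized count + 1) over the 3 libraries of a group (y axis) for each tested member, by cluster and genotype (x axis); open points are wild type, filled points knockout, and black lines the median of all genes tested in that tissue and genotype. Pcdhb19 and Pcdhb21, each with 1 library at 0, are left out; the line lies at 0.20 and 0.09 in cortex and at 0.12 and 0.09 in hippocampus.

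In cortex the clustered protocadherins were on the whole slightly higher in knockout, and a single gene passed the test. Pcdhb13, in the middle of the beta cluster, was called higher, while 0 members were called lower (limma, adjusted p below 0.05). Over all genes tested in cortex, 1.94% were called, 1.28% higher and 0.661% lower. The log2 fold change of knockout over wild type was above 0 for 46 of the 56 tested members, with a median of 0.22 against −0.01 over all genes. By cluster the medians were 0.36 (alpha), 0.15 (beta) and 0.26 (gamma), and 0.25, 0.11 and 0.15 without wild-type library 2. The groups did not overlap for 22 members, all higher in knockout (5 alpha, 6 beta and 11 gamma), beside 28.3% of all genes tested, 16% higher and 12.2% lower. At an unadjusted p under 0.05 there were 17 members, all higher, beside 18.4% of all genes, 10% higher and 8.38% lower. In bulk tissue, fewer cells of a type and less RNA per cell cannot be told apart.

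Pcdhb13 had 363, 443 and 376 normalized counts in wild type and 570.0, 671 and 598 in knockout in cortex. Every knockout library lay above every wild-type library, with a log2 fold change of 0.64 ± 0.11 (SE) and an adjusted p of 0.045. This call was lost in 9 of the 15 alternatives and held without wild-type library 2 (0.73 ± 0.09, adjusted p 9.7e-04). In hippocampus the same gene had 386, 611 and 447 normalized counts in wild type and 579.9, 747 and 633 in knockout, with 1 wild-type library inside the knockout range. The log2 fold change there was 0.46 ± 0.17 and the adjusted p 0.084, which did not pass. The share of beta cluster counts that Pcdhb13 held was 4.38 ± 0.903% in wild-type and 6.36 ± 0.259% in knockout cortex, and 4.16 ± 0.603% and 6.01 ± 0.715% in hippocampus.

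Without cortex wild-type library 2, 12 members were called higher and 2 lower, beside 21.4% of all genes called, 11% higher and 10.4% lower. Of the alpha cluster, Pcdhac2 and the Pcdha11 model ENSMUSG00000007440 were called higher. The beta genes called higher were Pcdhb7, Pcdhb8, Pcdhb13 and Pcdhb20. Of the gamma cluster, Pcdhga3, Pcdhga7, Pcdhga8, Pcdhga9, Pcdhga12 and Pcdhgc5 were called higher. The genes called lower were Pcdhb16 (−0.71 ± 0.10, adjusted p 0.0016) and Pcdhb21 (−0.77 ± 0.13, adjusted p 0.0040). With that library left out the median over the members was 0.15, and 41 of 56 fold changes were above 0.

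In hippocampus most of the gamma cluster rose in knockout, and most beta and alpha genes were not called. Of the 57 members 14 were called higher and 5 lower, beside 14.1% of all genes called higher and 15.1% lower (29.2% in all). By cluster, 13 of 21 gamma genes rose and 0 fell, 1 of 22 beta genes rose and 4 fell, and 0 of 14 alpha genes rose and 1 fell. The groups did not overlap for 17 members that were higher and 6 that were lower, beside 45.8% of all genes, 24.3% higher and 21.5% lower. Median log2 fold changes were 0.31 for gamma, 0.03 for beta and 0.18 for alpha, against 0.02 over all genes. The alpha median ranged from 0.013 (without wild-type library 1) to 0.27 over the 17 alternatives. edgeR and DESeq2 on the recovered read counts each called 13 gamma genes higher and 0 lower; at an unadjusted p under 0.05 limma had 14 gamma genes higher and 0 lower, and 1 alpha gene higher, beside 41.3% of all genes (21.1% higher and 20.2% lower). With quantile normalization, which raised the median of all genes to 0.09, 15 members were higher and 2 lower.

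**Figure D3:**
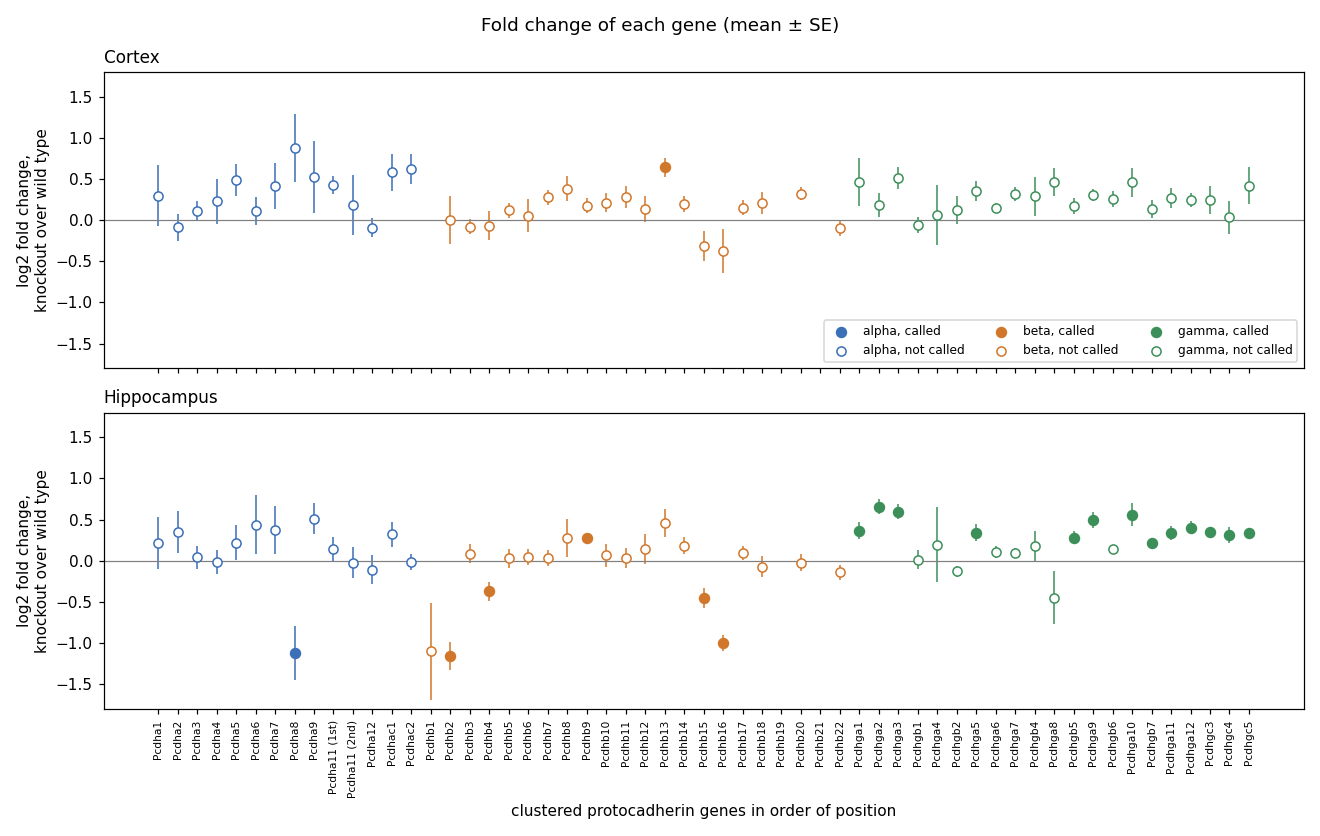
Log2 fold change, knockout over wild type, ± SE (y axis) of each clustered protocadherin in order of position (x axis), in cortex (top) and hippocampus (bottom); filled points passed an adjusted p below 0.05. In hippocampus 13 of 21 gamma points are filled above 0 and 4 beta points and 1 alpha point are filled below 0; Pcdhb19 and Pcdhb21, each with 1 library at 0, are left out, and Pcdhb1 was not tested in cortex.

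Among the alternate alpha genes, Pcdha8 had 84.4, 119.9 and 78.3 normalized counts in wild type and 32.2, 68.5 and 33.8 in knockout in hippocampus. All 3 knockout libraries lay below the wild-type ones, with a log2 fold change of −1.12 ± 0.33 and an adjusted p of 0.038, and its share of alpha counts went from 0.797 ± 0.130% to 0.355 ± 0.157%. The call was lost in 8 of the 17 alternatives. In cortex Pcdha8 had 76.3, 62.1 and 76.5 normalized counts in wild type and 273, 92.1 and 90.9 in knockout, again without overlap but in the opposite direction (0.88 ± 0.42, adjusted p 0.32; 0.78 ± 0.44, adjusted p 0.26, without wild-type library 2). No other alternate alpha gene was called in either tissue with all libraries, and their fold changes in hippocampus lay between −0.11 and 0.51.

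The C-type alpha gene Pcdhac1 had 459.7, 279.5 and 447 normalized counts in wild type and 489, 715 and 552 in knockout in cortex, and 297, 448 and 409 normalized counts in wild type and 461, 494 and 469 in knockout in hippocampus. The groups did not overlap in either tissue, yet neither difference passed (0.58 ± 0.22, adjusted p 0.23, and 0.32 ± 0.15, adjusted p 0.14). The cortex difference was 0.35 ± 0.15 (adjusted p 0.13) when wild-type library 2 was left out. Pcdhac2, a C-type gene expressed in serotonergic and many other neurons, had 3656, 2260.2 and 3777 normalized counts in wild type and 4996, 4908 and 4622 in knockout in cortex. Its groups did not overlap, and wild-type library 2 was the lowest. The log2 fold change was 0.62 ± 0.19 (adjusted p 0.15) with all libraries and 0.38 ± 0.04 (adjusted p 5.2e-04) without that library. In hippocampus it had 3236, 4248 and 3382 normalized counts in wild type and 3491, 3526 and 3652 in knockout, which overlapped (−0.02 ± 0.10, adjusted p 0.92).

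Pcdhb16 and Pcdhb2 showed the clearest falls of the beta cluster. Pcdhb16 had 665, 801 and 719 normalized counts in wild type and 389, 328 and 377 in knockout in hippocampus. The knockout level was lower in every library, with a log2 fold change of −0.996 ± 0.10 (adjusted p 4.0e-04), and the call held in all 17 alternatives. Pcdhb2 had 300.1, 467 and 429.6 normalized counts in wild type and 190.4, 173 and 165 in knockout; it changed by −1.15 ± 0.17 on the log2 scale (adjusted p 0.0025) and also kept its call in all 17. Each therefore held a smaller part of the cluster: Pcdhb16 went from 6.35 ± 0.296% to 3.36 ± 0.340% of beta counts and Pcdhb2 from 3.44 ± 0.384% to 1.63 ± 0.158%.

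In cortex Pcdhb16 had 501, 255 and 523 normalized counts in wild type and 309, 289.8 and 340.2 in knockout. Wild-type library 2 lay below all knockout libraries while libraries 1 and 3 lay above them (−0.38 ± 0.27, adjusted p 0.50; −0.71 ± 0.10, adjusted p 0.0016, without library 2). Pcdhb2 had 247, 114 and 237 normalized counts in wild type and 202, 172 and 193 in knockout in cortex, with library 2 again the lowest wild-type value. Its log2 fold change there was −8.6e-05 ± 0.29 (adjusted p 0.999998), or −0.36 ± 0.12 (adjusted p 0.075) without library 2.

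Pcdhb15 had 329.6, 321 and 331 normalized counts in wild type and 203, 271 and 248 in knockout in hippocampus (−0.45 ± 0.12, adjusted p 0.027). Pcdhb4 had 295, 381 and 316 normalized counts in wild type and 265, 259 and 239 in knockout (−0.37 ± 0.12, adjusted p 0.049). Both fell without overlap, but the calls were lost in 5 and 10 of the 17 alternatives. In cortex Pcdhb15 had 349, 244 and 338 normalized counts in wild type and 204, 267 and 276 in knockout (−0.31 ± 0.18, adjusted p 0.42), and Pcdhb4 had 186, 130.2 and 188 normalized counts in wild type and 148, 161 and 166 in knockout (−0.07 ± 0.18, adjusted p 0.86). Both cortex comparisons overlapped; without wild-type library 2 they were −0.47 ± 0.14 (adjusted p 0.050) and −0.24 ± 0.13 (adjusted p 0.22). Without hippocampus wild-type library 3, knockout library 1 or knockout library 3, the beta genes called lower numbered 2, down from 4.

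Pcdhb9, the most abundant beta gene, was the one beta gene that rose in hippocampus. It had 993, 1081 and 1014 normalized counts in wild type and 1178, 1272 and 1285 in knockout, with every knockout library above every wild-type library (0.27 ± 0.06, adjusted p 0.013). The call was lost in 3 of the 17 alternatives. In cortex it had 924, 776 and 812 normalized counts in wild type and 929, 976 and 926 in knockout, also without overlap but not called (0.18 ± 0.09, adjusted p 0.35; 0.12 ± 0.07, adjusted p 0.28, without wild-type library 2). Pcdhb1, the first gene of the cluster, had few counts. It had 10.2, 30.0 and 15.9 normalized counts in wild type and 15.6, 3.61 and 6.77 in knockout in hippocampus (−1.10 ± 0.59, adjusted p 0.20), and 2.97, 10.02 and 6.70 normalized counts in wild type and 3.76, 6.21 and 0 in knockout in cortex, where it was not tested.

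Both Pcdhb19 and Pcdhb21, picked after their values were seen, were listed at 0 in 1 library of each tissue while the other libraries held 84.1 or more. Pcdhb19 had 610.5, 623 and 653 normalized counts in wild type and 308, 0 and 350.0 in knockout in hippocampus, and 651, 339 and 627 normalized counts in wild type and 0, 459 and 490.0 in knockout in cortex. Pcdhb21 had 0, 259 and 276 normalized counts in wild type and 98.6, 109 and 84.1 in knockout in hippocampus, and 253, 0 and 247 normalized counts in wild type and 135, 159 and 143 in knockout in cortex. The library at 0 was a knockout library for Pcdhb19 and a wild-type library for Pcdhb21. With all libraries neither was called in either tissue. The log2 fold changes were then −3.09 ± 2.21 in cortex and −3.72 ± 2.02 in hippocampus for Pcdhb19. For Pcdhb21 they were 1.88 ± 1.98 and 1.23 ± 1.96. Without the library at 0, Pcdhb19 was lower in hippocampus at −0.94 ± 0.09 (adjusted p 0.0016) and at −0.12 ± 0.29 (adjusted p 0.88) in cortex. Pcdhb21 was lower in hippocampus at −1.46 ± 0.16 (adjusted p 6.7e-04) and in cortex at −0.77 ± 0.13 (adjusted p 0.0040). A single 0 beside at least 100 normalized counts in each of the other 5 libraries occurred for 7 of 21945 tested genes in cortex, 2 of them these, and for 8 of 22337 in hippocampus, 1 of them Pcdhb19. Whether these zeros reflect absent reads or a failed value was not tested.

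**Figure D4:**
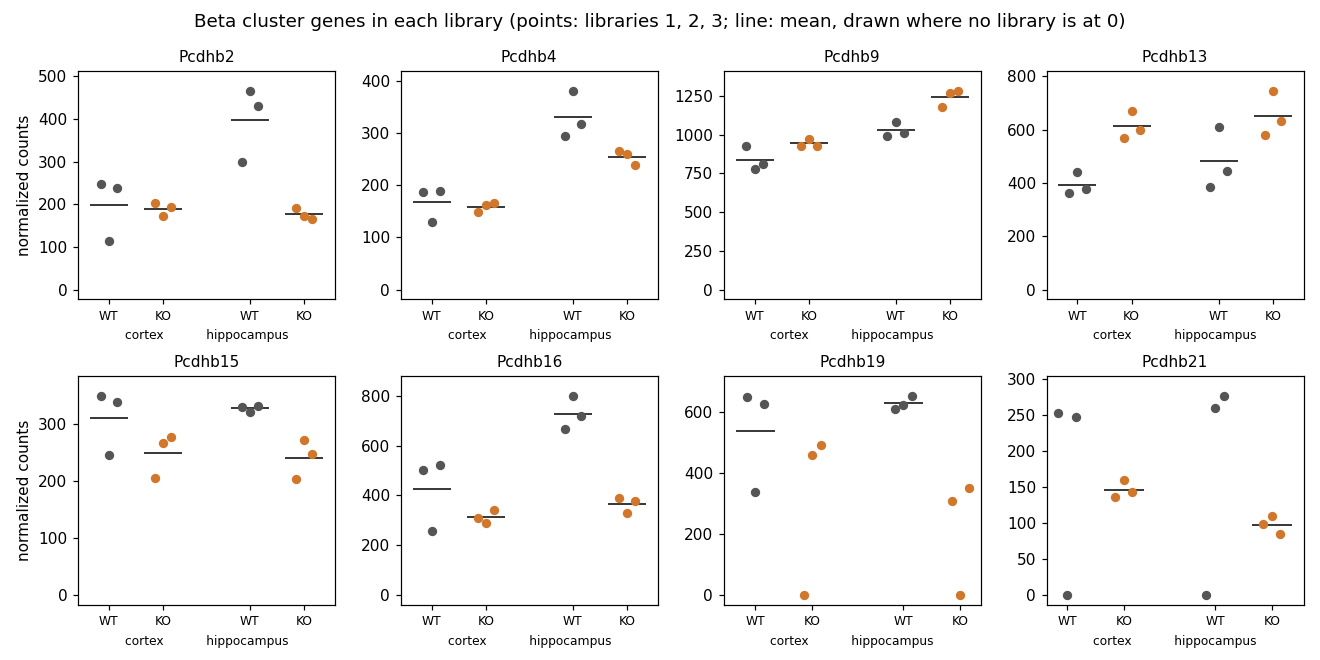
Normalized counts (y axis) of 8 beta cluster genes in each library, by genotype and tissue (x axis); points are libraries 1 to 3 from left to right, grey wild type and orange knockout, with the mean as a line where no library is at 0. In hippocampus all knockout points of Pcdhb16 lie at 389 or lower and all its wild-type points at 665 or higher.

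By gene type, 8 of 12 A-type, 2 of 6 B-type and all 3 C-type gamma genes were called higher in hippocampus. Over all genes tested there, 14.1% were called higher and 15.1% lower. Pcdhga2 had 4682, 5893 and 5787 normalized counts in wild type and 8404, 8991 and 8315 in knockout and the largest log2 fold change of the cluster, 0.66 ± 0.09 (adjusted p 0.0016). Pcdhga3, its neighbour, had 3446, 3895 and 3338 normalized counts in wild type and 5052, 6123 and 5017 in knockout (0.60 ± 0.09, adjusted p 0.0028). Both genes kept their calls in all 17 alternatives. Pcdhga12, the last A-type gene, had 3427, 3089.9 and 3026 normalized counts in wild type and 4713, 3943 and 3996 in knockout (0.40 ± 0.08, adjusted p 0.0087), and likewise kept its call in all 17. None of these 3 genes had overlapping groups.

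Among the C-type genes, Pcdhgc3 had 7188, 7861 and 7028 normalized counts in wild type and 9684, 9129.6 and 9244 in knockout (0.35 ± 0.05, adjusted p 0.0026). Pcdhgc5 had 7535, 8991 and 8133 normalized counts in wild type and 10026, 10801 and 10194 in knockout (0.33 ± 0.07, adjusted p 0.0090). Both rose without overlap and kept their calls in all 17 alternatives. Pcdhgc4 had 711, 864 and 859 normalized counts in wild type and 1033, 1054 and 930.2 in knockout (0.31 ± 0.09, adjusted p 0.039), a call lost in 7 of 17. The other called gamma genes were Pcdhga1, Pcdhga5, Pcdhga9, Pcdhga10, Pcdhga11, Pcdhgb5 and Pcdhgb7, with log2 fold changes from 0.21 (Pcdhgb7) to 0.56 (Pcdhga10). The variable part of Pcdhga10 and some of the exons of Pcdhgb7, Pcdhga11 and Pcdhga12 coincide with the opposite-strand model Gm26672, which itself held 121 ± 40.2 normalized counts in wild type and 87.2 ± 44.8 in knockout.

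Pcdhgb5 was the gamma gene with the lowest level per kb of unshared exon. It had 1082, 1175 and 952 normalized counts in wild type and 1257, 1329 and 1299 in knockout in hippocampus (0.28 ± 0.08, adjusted p 0.035), without overlap. The call was lost in 7 of 17 alternatives. In cortex it had 808, 782 and 857 normalized counts in wild type and 839, 1029.7 and 906 in knockout, which overlapped (0.18 ± 0.10, adjusted p 0.38; 0.15 ± 0.09, adjusted p 0.30, without wild-type library 2). The 8 gamma genes that were not called were Pcdhgb1, Pcdhga4, Pcdhgb2, Pcdhga6, Pcdhga7, Pcdhgb4, Pcdhga8 and Pcdhgb6. Of these, Pcdhga8 had 1028, 2500.2 and 2622 normalized counts in wild type and 1363, 1342 and 1453 in knockout and was picked after its values were seen. Its wild-type library 1 lay below all knockout libraries and libraries 2 and 3 far above them (−0.45 ± 0.32, adjusted p 0.34). Without wild-type library 1 the change was −0.89 ± 0.06 (adjusted p 5.4e-05), and without wild-type library 2 it was −0.24 ± 0.32 (adjusted p 0.60). Singling out library 1 was also a choice made after the values were seen, so that p-value is no independent support for a fall.

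Leaving out 1 library at a time moved the number of gamma genes called higher in hippocampus. Wild-type library 3 mattered most: 6 gamma genes were called when it was left out, 8 on omitting knockout library 1 or knockout library 2, 9 on omitting wild-type library 1 or knockout library 3, and 13 on omitting wild-type library 2. Without wild-type library 1, Pcdhga8 was in addition called lower. Over all members, calls without wild-type library 3 numbered 6 higher and 2 lower. The gamma median stayed above 0 in all 17 alternatives, between 0.26 and 0.38.

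In cortex the gamma genes had no call with all libraries and 9 at an unadjusted p under 0.05, all higher (18.4% of all genes), with 20 of 21 fold changes above 0 and a median of 0.26. Without wild-type library 2 the gamma median was 0.15, 19 of 21 fold changes were above 0 and 6 genes were called higher. Over all genes, 21.4% were then called, 11% higher and 10.4% lower. Pcdhga2 had 4382, 6386 and 5204 normalized counts in wild type and 5339.8, 6888 and 5817 in knockout, which overlapped (0.19 ± 0.15, adjusted p 0.55). Pcdhga3 had 2657, 2318 and 2998 normalized counts in wild type and 3241, 4269.8 and 3874 in knockout, without overlap (0.51 ± 0.13, adjusted p 0.10). Pcdhga12 had 3351, 2808 and 3479 normalized counts in wild type and 3838, 3771 and 3771 in knockout, also without overlap (0.25 ± 0.09, adjusted p 0.21). Without wild-type library 2 these values were 0.32 ± 0.11, 0.42 ± 0.10 and 0.15 ± 0.04, with adjusted p 0.063, 0.025 and 0.019. For the A-type genes taken as a type, the groups did not overlap for 9 of 12 members, all higher. Over all genes tested in cortex they did not overlap for 28.3%, 16% higher and 12.2% lower.

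Of the C-type gamma genes in cortex, Pcdhgc3 had 6856, 4442 and 7044 normalized counts in wild type and 7545, 6817 and 6956 in knockout (0.25 ± 0.17, adjusted p 0.49). Pcdhgc5 had 8361, 4563 and 8565 normalized counts in wild type and 9385, 9389 and 8845 in knockout (0.42 ± 0.23, adjusted p 0.38). Pcdhgc4 had 1124, 825 and 1479 normalized counts in wild type and 1121, 1035 and 1270.0 in knockout (0.03 ± 0.20, adjusted p 0.94). In all 3 genes wild-type library 2 was the lowest of the 6 libraries. Without it their log2 fold changes were 0.03 ± 0.05, 0.12 ± 0.03 and −0.18 ± 0.12, with adjusted p 0.69, 0.041 and 0.35, so that Pcdhgc5 alone was called.

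Summed over a cluster, the gamma genes held 59739, 69084 and 63294 normalized counts in the wild-type hippocampus libraries and 79553, 80111 and 76481 in knockout, 1.23-fold higher on average and without overlap. The alpha sums were 10559.8, 12959 and 11766 against 12196, 12793 and 12758 (1.07-fold), and the beta sums 10003, 12602 and 11872 against 10574, 10943 and 11065 (0.945-fold); both overlapped. In cortex the alpha sums were 13942, 11376 and 13834 against 15720.2, 16691 and 16044 (1.24-fold) and the gamma sums 59981, 51288 and 60044 against 67588, 68379.9 and 66360.4 (1.18-fold), neither with overlap. Beta sums in cortex overlapped, at 9683, 8180.1 and 9443 against 9099, 10086 and 9717 (1.06-fold). Without wild-type library 2 the cortex folds were 1.16 (alpha), 1.01 (beta) and 1.12 (gamma). With 3 libraries against 3 an exact permutation test cannot go below p = 0.1, so no p is given for these sums.

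**Figure D5:**
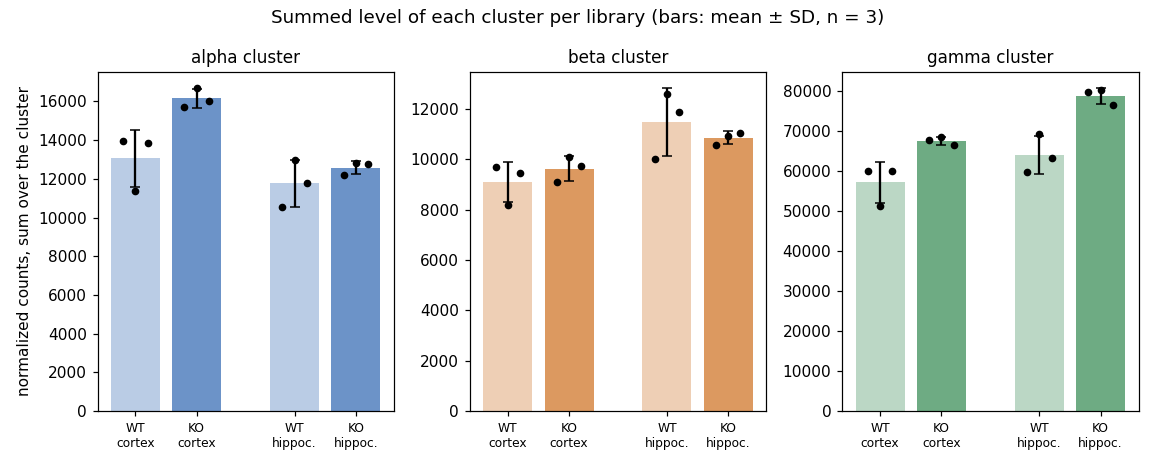
Summed normalized counts of each cluster (y axis, from 0) in each library, by genotype and tissue (x axis); bars are means, error bars SD (n = 3) and points single libraries. Gamma sums in hippocampus lie at 69084 or less in wild type and at 76481 or more in knockout; the tables of the tissues were scaled separately, so levels are compared within a tissue.

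As a share of all clustered protocadherin counts, which does not depend on library scaling, gamma went from 73.4 ± 0.866% to 77.0 ± 0.753% in hippocampus, beta from 13.1 ± 0.618% to 10.6 ± 0.358% and alpha from 13.5 ± 0.279% to 12.3 ± 0.4002%. In cortex beta went from 11.49 ± 0.134% to 10.3 ± 0.420%, alpha from 16.4 ± 0.338% to 17.3 ± 0.276% and gamma from 72.1 ± 0.326% to 72.3 ± 0.694%. Without wild-type library 2 the wild-type means in cortex were 16.6% (alpha), 11.46% (beta) and 71.9% (gamma). Within the gamma cluster in hippocampus, Pcdhga2 held 8.50 ± 0.653% of the counts in wild type and 10.9 ± 0.330% in knockout, and Pcdhga3 5.56 ± 0.256% and 6.85 ± 0.694%. Pcdhgb2, which was not called (−0.13 ± 0.07, adjusted p 0.20) and was picked after its values were seen, held 3.08 ± 0.0525% and 2.29 ± 0.102%. Where models overlap outside the constant exons the sum of the pair was also taken. Pcdhgb1 with Pcdhga4 summed to 6762 ± 958 normalized counts in wild-type and 6985 ± 965 in knockout hippocampus. Pcdhgb4 with Pcdhga8 summed to 4141 ± 1343 and 3715 ± 314, and Pcdhb21 with Pcdhb22 to 972 ± 235 and 817 ± 33.5. The wild-type value of the last pair includes library 1, where Pcdhb21 was at 0.

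Whether the knockout effect differed between the tissues was tested with the interaction term of a limma fit over the 12 libraries. The fit treats the libraries as independent, and the labels do not say whether cortex and hippocampus came from the same animals. No member passed (0 of 56), beside 3.02% of all genes. At an unadjusted p under 0.05 there were 6 members, beside 22.6% of all genes. The smallest p-values belonged to Pcdha8, Pcdhb2 and Pcdhac2, with differences (hippocampus effect minus cortex effect, log2) of −1.99 ± 0.58, −1.15 ± 0.37 and −0.64 ± 0.23 and adjusted p 0.082, 0.10 and 0.14. Without cortex wild-type library 2, Pcdhgc3 was called (0.32 ± 0.08, adjusted p 0.023), and without hippocampus wild-type library 1, Pcdhga8 was (−1.35 ± 0.21, adjusted p 0.018). The groups did not overlap in both tissues for 11 members, out of 22 in cortex and 23 in hippocampus, beside 14.8% of all genes tested in both. Of these, 10 were higher in both (Pcdhac1, Pcdhb9, Pcdhga3, Pcdhga5, Pcdhga9, Pcdhga10, Pcdhga11, Pcdhga12, Pcdhgb6 and Pcdhgc5), beside 7.57% of all genes, and Pcdha8 went opposite ways, beside 3.15%.

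Sums of several cell-type marker lists also differed between the genotypes, while others overlapped. In hippocampus the summed normalized counts of 5 excitatory neuron markers were 239488 to 269729.6 in wild type and 281309 to 298634 in knockout, and those of 6 inhibitory neuron markers 39313 to 46749 in wild type and 53854 to 55714 in knockout, both without overlap. Sums of 6 markers each were also higher for oligodendrocytes (397612 to 402594 in wild type and 432041 to 501044 in knockout) and microglia (18597 to 22160.0 in wild type and 27265 to 28463 in knockout). Astrocyte markers were lower (306740.3 to 372365 in wild type and 288764 to 303883 in knockout), although 3 of 6 rose and 1 fell in the test. In cortex the sums did not overlap for neurons (426028 to 429114 in wild type and 454703 to 472672 in knockout), inhibitory neurons (56239 to 60423 in wild type and 67034 to 67780.2 in knockout) and markers of striatal neurons (10624 to 11943 in wild type and 27186 to 43351 in knockout), all higher in knockout. The sums overlapped for the 6 neuronal markers in hippocampus (302342 to 350315 in wild type and 329498 to 335356 in knockout). Those of the 5 excitatory neuron markers overlapped in cortex (256293 to 311554 in wild type and 287451 to 292783 in knockout). Of the single markers in cortex, 3 of 6 neuronal ones had a fold change above 0 and 3 below, with 0 called, and 4 of 6 inhibitory ones were above 0 and 2 below, with 2 called higher. Cortex sums were also higher, without overlap, for oligodendrocytes, microglia, endothelial cells and choroid plexus, and lower for meninges. By gene, 6 of 6 striatal markers rose in cortex, and 6 of 6 microglial markers and 4 of 6 inhibitory neuron markers rose in hippocampus. Over all genes tested, 1.94% were called in cortex, 1.28% higher, and 29.2% in hippocampus, 14.1% higher and 15.1% lower. The groups of a single gene did not overlap for 28.3% of all genes in cortex and 45.8% in hippocampus. The part of these markers in the protocadherin results was not tested.

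The list of 22 genes tied to the choice of protocadherin promoters included CTCF, cohesin and its loader, DNA methyltransferases and Smchd1. In hippocampus 5 rose and 10 fell, with a median of −0.17, beside 14.1% of all genes called higher and 15.1% lower. Dnmt3a, a de novo DNA methyltransferase, went from 8539 ± 118 to 4854 ± 51.6 normalized counts (SD, n = 3; log2 fold change −0.81 ± 0.03, adjusted p 1.7e-05). Nipbl, which loads cohesin, went from 5232 ± 142 to 3213 ± 165 (−0.70 ± 0.05, adjusted p 8.2e-05). The 5 that rose, named after their values were seen, were Trim28, Ehmt2, Rad21, Wiz and Ctcf, by 0.12 (Ctcf) to 0.25 (Trim28). In cortex 0 of 22 were called, beside 1.94% of all genes, with a median of 0.06. At an unadjusted p under 0.05 there were 4, beside 18.4% of all genes. Without cortex wild-type library 2, 3 rose and 6 fell, beside 11% of all genes higher and 10.4% lower. The median was then −0.02.

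Among 22 intracellular partners and cytoskeletal effectors, 9 rose and 1 fell in hippocampus (median 0.18). Of all genes, 14.1% were called higher there and 15.1% lower. Abi1, a subunit of the WAVE complex that binds protocadherin tails, went from 10078 ± 235 to 12955 ± 838 normalized counts (0.36 ± 0.05, adjusted p 0.0024). Nlgn2, a postsynaptic adhesion protein of inhibitory synapses, went from 26933 ± 1217 to 32641 ± 632 (0.28 ± 0.05, adjusted p 0.0039). Prkca, a protein kinase C, fell from 30357 ± 3448 to 21725 ± 587 (−0.48 ± 0.08, adjusted p 0.0042). In cortex 0 of 22 were called (median 0.13), beside 1.94% of all genes. At an unadjusted p under 0.05 there were 6, beside 18.4% of all genes. Without wild-type library 2, 9 rose and 2 fell (median 0.09), beside 11% of all genes higher and 10.4% lower.

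The protocadherins that lie outside the clusters were also tested. In hippocampus 2 of 12 rose and 5 fell, with a median of −0.47, beside 14.1% of all genes called higher and 15.1% lower. Pcdh7 (−0.74 ± 0.05, adjusted p 7.3e-05), Pcdh17 (−0.73 ± 0.09, adjusted p 0.0012) and Pcdh11x (−0.83 ± 0.11, adjusted p 0.0016) had the smallest p-values, and Pcdh1 and Pcdh8, named after their values were seen, rose. Of 21 classical and other large cadherins, 2 rose and 9 fell in hippocampus (median −0.09), beside the same shares of all genes. Among those that fell were Fat1 (−0.93 ± 0.05, adjusted p 4.3e-05), Fat4 (−0.94 ± 0.06, adjusted p 6.9e-05) and Celsr3 (−0.84 ± 0.06, adjusted p 1.1e-04). In cortex 0 of 12 protocadherins were called (median −0.09), and 5 had an unadjusted p under 0.05. Without wild-type library 2, 1 rose and 5 fell (median −0.25). Of the cadherins Cdh9 (0.55 ± 0.09, adjusted p 0.040) and Cdh18 (0.50 ± 0.09, adjusted p 0.042) rose in cortex and 0 fell, with a median of 0.13. Without wild-type library 2, 6 cadherins rose and 8 fell (median −0.12). Over all genes tested in cortex, 1.94% were called and 18.4% had an unadjusted p under 0.05. Without wild-type library 2, 11% were called higher and 10.4% lower.

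The 15 other protein-coding genes within 200 kb of the first and last member, or between the clusters, were tested as neighbours. In hippocampus 5 of 15 rose and 0 fell (median 0.12), beside 29.2% of all genes called, 14.1% higher and 15.1% lower. They were Ik (0.22 ± 0.04, adjusted p 0.0060) and Hars (0.26 ± 0.04, adjusted p 0.0034) on the alpha side, and Diaph1 (0.14 ± 0.04, adjusted p 0.047), Hdac3 (0.16 ± 0.04, adjusted p 0.020) and Rell2 (0.27 ± 0.05, adjusted p 0.0053) on the gamma side. In cortex 0 of the 15 were called (median 0.01), beside 1.94% of all genes. Without wild-type library 2, 2 rose and 1 fell (median 0.07), beside 11% of all genes higher and 10.4% lower. Within the clusters, 2 opposite-strand models, picked after their values were seen, fell in hippocampus. Gm10544 had 68.2, 76.0 and 65.6 normalized counts in wild type and 15.6, 37.9 and 30.0 in knockout (−1.38 ± 0.33, adjusted p 0.018), and its exons coincide in part with those of the Pcdha11 model ENSMUSG00000102206. Gm29994, between gamma constant exons, had 40.7, 37.5 and 86.8 normalized counts in wild type and 13.7, 11.7 and 30.0 in knockout (−1.54 ± 0.45, adjusted p 0.039).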

How the data were processed

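RNA sequencing of total RNA measured gene expression in 12 libraries, 3 wild-type and 3 knockout from cortex and the same from hippocampus. The deposited values are signal in the form of gene counts divided by library size factors, 1 table per tissue, scaled separately; levels are not compared between tissues. Per the submitters' processing notes, the aligner STAR, the counter HTSeq, DESeq2 and the build GRCm38 were used; no versions are listed. The treatment of reads in overlapping exons, and of strand, is not stated in the notes.

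The values of every library proved to be whole-number multiples (within 0.001) of its smallest step, so division by the step returned reads. In cortex wild-type libraries 1 and 2 the step lies so near 1 that this reading could not be checked, so edgeR and DESeq2 were not run in cortex. Gene models came from GENCODE M21 (GRCm38): 55227 of 55487 rows matched and 260 did not. Within a tissue, genes whose mean reached 10 normalized counts were fitted with limma 3.58.1 (R 4.3.3) on log2(normalized count + 1), with a prior variance that follows expression, two-sided, Benjamini-Hochberg over all tested genes of the tissue. Fold changes are on that log2 scale and are too small for genes with few counts. A called gene has an adjusted p below 0.05. The interaction of genotype and tissue was fitted over all 12 libraries. edgeR 4.0.16 and DESeq2 1.42.0 on the recovered reads of hippocampus, other scalings, filters and pseudocounts, a replicate block and leaving out each library were alternatives. The fits were tested on simulated data. The number of columns belonging to other samples was 0.

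The members and gene lists were chosen with earlier results of these data known. Library values are given for the 5 C-type genes, up to 5 called members with the smallest p in each cluster and tissue, the highest and lowest member of each cluster per kb, and the 3 members with the smallest interaction p; per list, up to 3 called genes are named (1 is not reported here), and per tissue up to 5 called neighbours within 200 kb. Genes outside this rule are marked as picked after their values were seen. Sequences are not shown.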

Additional observations from a re-analysis of the deposited data

How the results depend on the processing

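In cortex, the count of members called higher (1) was 0 with TMM factors, with a constant prior variance, with no filter on low values and with the replicate block, and 0 to 12 on leaving out 1 library, the 12 being without wild-type library 2; the count called lower (0) was 0 to 2. In hippocampus, the 14 higher and 5 lower were 7 and 3 with a constant prior variance, 10 and 3 with no filter, 15 and 2 with quantile normalization, 13 and 4 with the replicate block, and 6 to 17 and 2 to 5 on leaving out 1 library; the cause was not tested. Of the 19 hippocampus calls, 19 were kept by edgeR, DESeq2 and TMM factors alike, 10 with a constant prior variance and 8 to 17 without 1 library. The interaction count (0) was 0 to 1 on leaving out 1 library and 0 with the replicate block. Replicate numbers gave no sign of pairing between wild-type and knockout libraries of a tissue. Deviations of same-numbered libraries correlated at −0.06 to 0.09, and of differently numbered ones at −0.10 to 0.12. With 3 libraries a group this check could not exclude pairing, and pairing between the tissues was not tested. The block lost the hippocampus calls of Pcdhb4, Pcdhga5 and Pcdhgc4.

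Among the members chosen by rule, sign changes touched uncalled values alone. Outside that rule, Pcdhb21 was at 1.88 in cortex and 1.23 in hippocampus with all libraries. It became a called fall in both tissues without its library at 0. With the length trend removed, Pcdhac2 in hippocampus became 0.0401, Pcdhb2 in cortex 0.0268 and Pcdhgc4 in cortex −0.022. With quantile normalization, Pcdhb2 in cortex became 0.0584 and Pcdhb4 in cortex 0.0081, and with a pseudocount of 0.5 Pcdhb2 in cortex became 0.00017. On leaving out 1 library, Pcdhac2 in hippocampus ranged from −0.0921 (wild-type library 1) to 0.10 (wild-type library 2), and in cortex Pcdhb2 from −0.36 (wild-type library 2) to 0.19 (wild-type library 1), Pcdhb4 from −0.24 (wild-type library 2) to 0.022 (wild-type library 3) and Pcdhgc4 from −0.18 (wild-type library 2) to 0.24 (wild-type library 3). The median of the beta cluster in hippocampus (0.03) was −0.08 without wild-type library 1 and −0.03 without knockout library 2. With 3 libraries a group, 1 library can decide a count, and reads in constant exons limit what an alpha or gamma value says of 1 gene.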
